A study of Rattus norvegicus with 9 samples.

Results

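Immediate early genes are transcribed within minutes of a growth factor, cytokine or stress signal, with no need for new protein, and their mRNAs are short-lived. The 8 members studied here were Fos, Jun, Egr1, Myc, the nuclear receptors Nr4a1, Nr4a2 and Nr4a3, and Zfp36. They were taken by symbol: every probe set annotated with one of these symbols and no other was used, which gave 14 probe sets of 31042 on the array and 8 genes of 14217. Where a gene had several probe sets, the one with the highest mean over the 9 arrays stood for it and the others are given beside it.

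Total RNA of rat tongue (male animals of the Sprague Dawley strain) was read on 9 Affymetrix arrays, 3 in each of 3 groups. The 4NQO+IL-1Ra group received 4-nitroquinoline oxide (4NQO), which damages DNA and produces squamous lesions of the tongue, together with IL-1Ra, the natural antagonist that blocks interleukin-1 at its receptor. The 4NQO group received the carcinogen without IL-1Ra, and the normal group drank distilled water alone. The carcinogen was given at 0.002% in the drinking water, and the labels put the killing of rats with visible lesions between week 14 and week 22, whereas the methods of the study describe 4NQO first, then IL-1Ra or saline injected under the tongue mucosa, with all rats killed at the end of week 22. The sources used here gave neither the age of the rats nor the lesion stage of each tongue. The study describes the samples as separate tongue tissues, so p-values measure the spread between tongues of a group.

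Fos and Jun are leucine zipper proteins that pair to form the transcription factor AP-1. Egr1 is a zinc finger factor, and Myc pairs with Max to drive genes of growth and ribosome production. The Nr4a receptors are orphan nuclear receptors that bind DNA without a known hormone, and Zfp36 (tristetraprolin) binds AU-rich stretches of mRNAs such as that of tumour necrosis factor and hastens their decay. Transcription of these genes is commonly set off through serum response factor (SRF), which binds the CArG box with its ternary complex and MRTF partners, and through CREB, which binds the cyclic AMP response element (CRE).

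Promoter sequences are shown because SRF and CREB sites are the entry points of the signals named above. RefSeq windows (GRCr8) were matched for 4 of the 8 members, and all 4 are shown whatever their levels did. None was matched for Fos, Jun, Myc or Nr4a3. Each line gives the 250 bases before an annotated start, 5′ to 3′ along the gene. Capitals mark CArG boxes and the CRE core TGACG or its reverse complement CGTCA.
Nr4a1: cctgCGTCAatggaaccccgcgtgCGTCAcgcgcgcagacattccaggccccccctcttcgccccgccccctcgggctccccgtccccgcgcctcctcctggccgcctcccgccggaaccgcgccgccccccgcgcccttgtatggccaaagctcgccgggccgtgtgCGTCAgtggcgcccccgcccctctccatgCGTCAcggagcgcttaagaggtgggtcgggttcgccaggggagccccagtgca
Nr4a2: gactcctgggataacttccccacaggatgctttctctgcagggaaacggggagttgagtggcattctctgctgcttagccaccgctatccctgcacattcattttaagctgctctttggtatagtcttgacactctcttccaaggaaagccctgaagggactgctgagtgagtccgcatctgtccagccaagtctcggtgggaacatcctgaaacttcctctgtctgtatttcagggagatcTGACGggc
Zfp36: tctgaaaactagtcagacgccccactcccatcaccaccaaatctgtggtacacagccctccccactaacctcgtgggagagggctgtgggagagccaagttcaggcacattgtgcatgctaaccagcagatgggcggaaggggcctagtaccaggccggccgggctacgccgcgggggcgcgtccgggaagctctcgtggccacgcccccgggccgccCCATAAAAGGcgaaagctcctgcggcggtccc
Egr1: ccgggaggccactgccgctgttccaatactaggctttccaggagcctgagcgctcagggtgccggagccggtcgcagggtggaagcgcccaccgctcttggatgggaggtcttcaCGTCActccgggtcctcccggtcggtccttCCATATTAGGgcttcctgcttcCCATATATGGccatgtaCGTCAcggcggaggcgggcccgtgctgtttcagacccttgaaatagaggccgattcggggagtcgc
These windows lie at chr7:134259888-134260137 on the plus strand (Nr4a1), chr3:62104888-62105137 on the minus strand (Nr4a2), chr1:92799109-92799358 on the minus strand (Zfp36) and chr18:26736828-26737077 on the plus strand (Egr1). Those of Nr4a1 and Nr4a2 lie inside the span of the annotated gene, which runs over chr7:134247153-134268044 and chr3:62098739-62115926. The Zfp36 and Egr1 windows abut genes at chr1:92796628-92799108 and chr18:26737078-26740877. The other members lie at chr6:110852188-110855054 (Fos), chr5:115009900-115012993 (Jun), chr7:95483105-95488031 (Myc) and chr5:67157141-67198287 (Nr4a3).

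The Nr4a1 window held 4 CRE cores, beginning 246, 226, 82 and 53 bases before the start. The Egr1 window held 2 CArG boxes, at 105 and 83 bases before the start, and 2 CRE cores, at 135 and 66 bases. The Zfp36 window held 1 CArG box at 32 bases, and the Nr4a2 window held 1 CRE core at 8 bases before the start. Of 33469 RefSeq windows of this length, 1.5% held a CArG box and 18.2% a CRE core. Both strands were searched, and the CRE core also lies within the full CRE. The full CRE (TGACGTCA), the AP-1 site (TGACTCA), the E-box (CACGTG), the EGR site (GCGTGGGCG) and the NR4A site NBRE (AAAGGTCA) had 0 matches in these 4 windows, against 1.59%, 4.05%, 5.59%, 0.478% and 1.24% of all windows in that order. These matches describe the letters and were not tested as binding sites.

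In 4NQO tongue, 5 of the 8 members were higher than in normal tongue and none was lower: Nr4a3 (2.71-fold), Nr4a1 (2.42-fold), Myc (2.05-fold), Zfp36 (1.69-fold) and Nr4a2 (1.66-fold). Fos, Jun and Egr1 did not pass the test. With IL-1Ra, Nr4a1 was 1.93-fold lower than in 4NQO tongue, and it was the only member called in that comparison. Against normal tongue, Nr4a3 was the only member called in 4NQO+IL-1Ra tongue, at 3.24-fold higher. Calls were made by limma with Benjamini-Hochberg adjustment over all 31042 probe sets at an adjusted p of 0.05. In bulk tissue, a change in the number of cells of a type and a change in RNA per cell cannot be told apart.

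The background of calls was wide in 1 comparison and narrow in the others. In 4NQO against normal tongue, 12.4% of 14217 genes were called higher and 5.08% lower, beside 5 of 8 and 0 of 8 members. In 4NQO+IL-1Ra against 4NQO tongue, 1.91% were called higher and 0.753% lower, beside 0 of 8 and 1 of 8 members. In 4NQO+IL-1Ra against normal tongue, 1.66% were called higher and 0.542% lower, beside 1 of 8 and 0 of 8 members. At an unadjusted limma p below 0.05, 5 members were higher and 0 lower in the first comparison, 0 higher and 2 lower in the second, and 3 higher and 0 lower in the third. The members' median differences were 0.75, -0.27 and 0.25 log2 in these comparisons, beside 0.08, -0.04 and 0.04 log2 over all genes. The share of all genes whose arrays did not overlap between groups was not computed, so statements of overlap below have no background. The comparisons share arrays: the 4NQO arrays enter the first and the second, and the normal arrays the first and the third. The 4NQO+IL-1Ra arrays enter the second and the third, and all 9 arrays enter the variance used in each. The first background depended on scaling, since 2922 of 4610 called probe sets were higher in 4NQO as deposited, 1463 of 2821 after quantile normalization and 1182 of 2480 after cyclic loess.

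**Figure D1:**
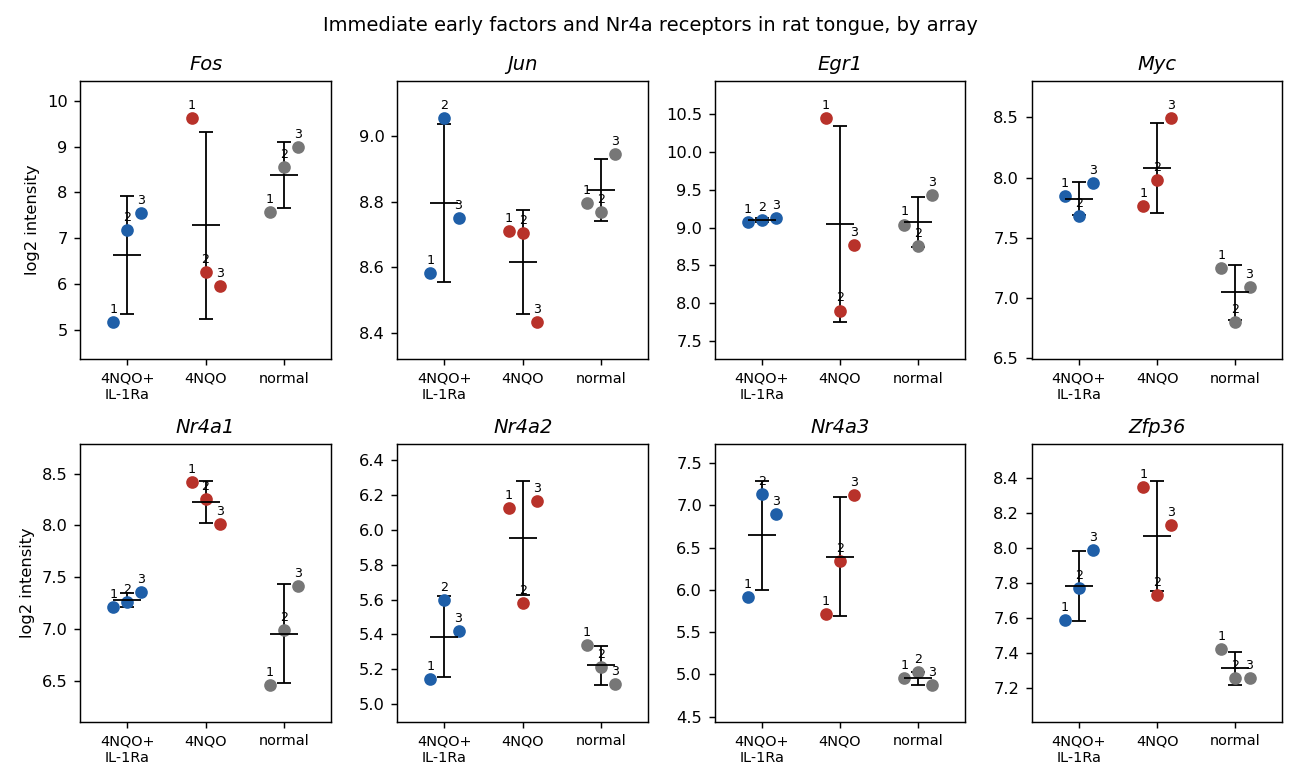
Log2 intensity of the main probe set of each member (vertical axes, each with its own range) on the 3 arrays of 4NQO+IL-1Ra (blue), 4NQO (red) and normal (grey) tongue, with the array number above each point and the mean and SD as bars. The 4NQO arrays of Fos spread from 5.96 to 9.63, while every 4NQO array of Myc, Nr4a1, Nr4a2, Nr4a3 and Zfp36 lies above every normal array. The share of all genes separated in this way was not computed.

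**Figure D2:**
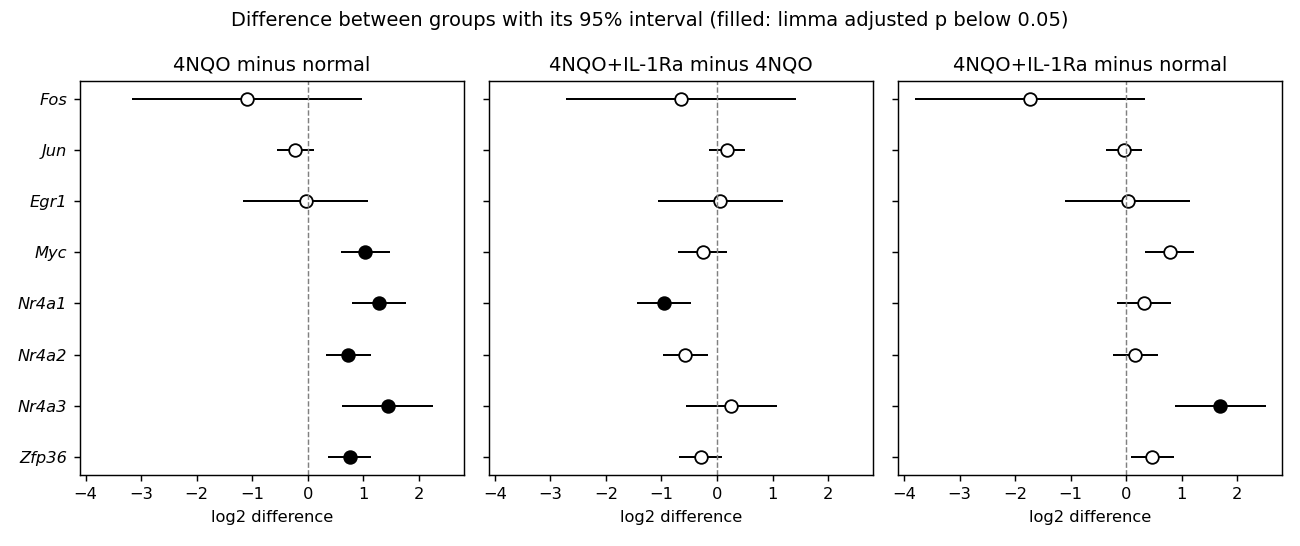
Log2 difference of each member (points) with its 95% interval (lines) for 4NQO minus normal, 4NQO+IL-1Ra minus 4NQO, and 4NQO+IL-1Ra minus normal. Filled points had a limma adjusted p below 0.05: 5 in the first panel, Nr4a1 in the second and Nr4a3 in the third, and the intervals of Fos and Egr1 are the widest.

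Fos, the inducible partner in AP-1, read 5.17, 7.19 and 7.56 log2 on the 4NQO+IL-1Ra arrays, 9.63, 6.26 and 5.96 log2 on the 4NQO arrays, and 7.58, 8.57 and 8.98 log2 on the normal arrays. The 4NQO arrays lay on both sides of the normal ones: array 1 was above all of them and arrays 2 and 3 below all of them. Every 4NQO+IL-1Ra array was below every normal array. Means were 6.64 ± 1.28 log2 with IL-1Ra, 7.28 ± 2.04 in 4NQO and 8.38 ± 0.72 in normal tongue (SD, n = 3 each).

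None of these Fos differences passed the test. The difference was -1.09 log2 for 4NQO against normal (95% interval -3.15 to 0.96, limma adjusted p = 0.434) and -1.74 log2 for 4NQO+IL-1Ra against normal (-3.79 to 0.31, limma adjusted p = 0.291). It was -0.64 log2 for 4NQO+IL-1Ra against 4NQO (limma adjusted p = 0.754). Array 1 of the 4NQO group decided much of this: without it, 4NQO minus normal was -2.27 log2 (limma adjusted p = 0.0522) and 4NQO+IL-1Ra minus 4NQO changed sign to 0.53 log2. The SD of Fos was larger than that of 99.9%, 99.97% and 99.5% of all probe sets in the 4NQO+IL-1Ra, 4NQO and normal groups. A second Fos probe set was dim, at 3.49 to 4.01 log2 on all arrays, and was not called.

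Egr1 read 9.08, 9.10 and 9.13 log2 with IL-1Ra, 10.45, 7.90 and 8.78 log2 in 4NQO, and 9.04, 8.76 and 9.43 log2 in normal tongue. The group means almost coincided, at 9.10 ± 0.03, 9.04 ± 1.30 and 9.08 ± 0.34 log2 (SD, n = 3 each), while the arrays within the 4NQO group differed by more than 2.5 log2. The SD of Egr1 exceeded that of 99.7% of probe sets in 4NQO tongue and that of 3.08% of probe sets in 4NQO+IL-1Ra tongue. The spread itself was not tested.

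The difference of Egr1 between 4NQO and normal tongue was -0.03 log2 (95% interval -1.14 to 1.07, limma adjusted p = 0.970), which leaves room for a 2-fold change either way. Between 4NQO+IL-1Ra and 4NQO it was 0.06 log2 (95% interval -1.05 to 1.16, limma adjusted p = 0.965). The sign turned with single arrays: 4NQO minus normal was -0.74 log2 without 4NQO array 1 and 0.54 log2 without 4NQO array 2.

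Jun, the partner of Fos, varied little. It read 8.58, 9.06 and 8.75 log2 with IL-1Ra, 8.71, 8.70 and 8.43 log2 in 4NQO, and 8.79, 8.77 and 8.94 log2 in normal tongue. The 4NQO arrays were all below the normal arrays, but the difference of -0.22 log2 did not pass (95% interval -0.54 to 0.09, limma adjusted p = 0.301). With IL-1Ra the difference from 4NQO was 0.18 log2 (limma adjusted p = 0.532). The other 2 Jun probe sets gave 0.10 and 0.12 log2 for 4NQO against normal, so the sign was not shared among probe sets, and none was called.

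Myc read 7.84, 7.68 and 7.95 log2 with IL-1Ra, 7.77, 7.98 and 8.50 log2 in 4NQO, and 7.25, 6.80 and 7.09 log2 in normal tongue. All 6 arrays of carcinogen-treated rats were above the 3 normal arrays. Means were 7.82 ± 0.14, 8.08 ± 0.38 and 7.05 ± 0.23 log2 (SD, n = 3 each). Myc rose 2.05-fold in 4NQO against normal tongue (1.04 log2, 95% interval 0.61 to 1.46, limma adjusted p = 0.0107) and was called with any single array left out.

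In 4NQO+IL-1Ra against normal tongue, the Myc difference of 0.78 log2 did not pass (95% interval 0.36 to 1.20, limma adjusted p = 0.0637). It passed with array weights (limma adjusted p = 0.0205) and with only the 6 compared arrays (limma adjusted p = 0.0211). It also passed without 4NQO array 3 (limma adjusted p = 0.0215), but not without any other single array. The groups 4NQO+IL-1Ra and 4NQO overlapped, with a difference of -0.26 log2 (95% interval -0.68 to 0.17, limma adjusted p = 0.506).

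Nr4a1 (Nur77) separated the 4NQO group from both others. It read 7.22, 7.27 and 7.36 log2 with IL-1Ra, 8.42, 8.26 and 8.01 log2 in 4NQO, and 6.46, 6.99 and 7.41 log2 in normal tongue. Every 4NQO array was above every array of the other groups, and the 4NQO+IL-1Ra arrays lay within the range of the normal ones. Means were 7.28 ± 0.07, 8.23 ± 0.20 and 6.96 ± 0.48 log2 (SD, n = 3 each).

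Nr4a1 rose 2.42-fold in 4NQO against normal tongue (1.27 log2, 95% interval 0.81 to 1.74, limma adjusted p = 0.00805), and the call held with any single array left out. It was 1.93-fold lower in 4NQO+IL-1Ra than in 4NQO tongue (-0.95 log2, 95% interval -1.42 to -0.48, limma adjusted p = 0.0487). That call was at the threshold: it was lost without any one 4NQO+IL-1Ra array, without 4NQO array 1 or 2, and without normal array 2, with differences of -0.99 to -0.86 log2 and limma adjusted p of 0.0791 to 0.148. It was also lost after quantile normalization (limma adjusted p = 0.0650), cyclic loess (0.0748) and array weights (0.0871). The difference between 4NQO+IL-1Ra and normal tongue was 0.32 log2 (95% interval -0.14 to 0.79, limma adjusted p = 0.385).

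Nr4a2 (Nurr1) read 5.14, 5.60 and 5.42 log2 with IL-1Ra, 6.12, 5.58 and 6.16 log2 in 4NQO, and 5.34, 5.22 and 5.11 log2 in normal tongue. The 4NQO arrays were above the normal arrays, and 4NQO array 2 lay within the range of the 4NQO+IL-1Ra arrays. Nr4a2 rose 1.66-fold in 4NQO against normal tongue (0.73 log2, 95% interval 0.34 to 1.12, limma adjusted p = 0.0242). Without 4NQO array 1 or 3, or without any one normal array, the difference was 0.63 to 0.79 log2 and the limma adjusted p 0.0550 to 0.0961.

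In 4NQO+IL-1Ra against 4NQO tongue, the difference of Nr4a2 was -0.57 log2 (95% interval -0.96 to -0.18, limma adjusted p = 0.120), and without 4NQO array 2 it was -0.76 log2 and passed (limma adjusted p = 0.0483). Against normal tongue, 4NQO+IL-1Ra differed by 0.17 log2 (limma adjusted p = 0.607). A second, dim Nr4a2 probe set ran from 3.53 to 4.19 log2 and was not called, with 0.31 log2 for 4NQO against normal (limma adjusted p = 0.222).

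Nr4a3 (Nor1) read 5.91, 7.13 and 6.90 log2 with IL-1Ra, 5.72, 6.34 and 7.12 log2 in 4NQO, and 4.96, 5.02 and 4.87 log2 in normal tongue. The normal arrays were tightly grouped, and all 6 arrays of carcinogen-treated rats lay above them and overlapped each other. Means were 6.65 ± 0.65, 6.39 ± 0.70 and 4.95 ± 0.08 log2 (SD, n = 3 each). Nr4a3 rose 2.71-fold in 4NQO against normal tongue (1.44 log2, 95% interval 0.63 to 2.24, limma adjusted p = 0.0286) and 3.24-fold in 4NQO+IL-1Ra against normal tongue (1.69 log2, 95% interval 0.89 to 2.50, limma adjusted p = 0.0495).

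Both Nr4a3 calls depended on single arrays. For 4NQO against normal, the limma adjusted p was 0.0527 to 0.0981 without 4NQO array 2 or 3 or any one normal array, with differences of 1.07 to 1.47 log2. For 4NQO+IL-1Ra against normal, it was 0.0740 to 0.171 without any one array of those groups, with differences of 1.45 to 2.06 log2. The difference between 4NQO+IL-1Ra and 4NQO was 0.26 log2 (95% interval -0.55 to 1.06, limma adjusted p = 0.749). A second Nr4a3 probe set pointed the same way against normal tongue, at 0.64 log2 in 4NQO and 0.74 log2 in 4NQO+IL-1Ra (limma adjusted p = 0.166 and 0.178). The remaining probe set was at or below the array's lower quartile on all 9 arrays.

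Zfp36 read 7.59, 7.77 and 7.99 log2 with IL-1Ra, 8.35, 7.73 and 8.13 log2 in 4NQO, and 7.42, 7.26 and 7.26 log2 in normal tongue. All carcinogen-treated arrays were above the normal arrays, and the 4NQO+IL-1Ra and 4NQO arrays overlapped. Zfp36 rose 1.69-fold in 4NQO against normal tongue (0.76 log2, 95% interval 0.39 to 1.13, limma adjusted p = 0.0185). The call was lost after cyclic loess (limma adjusted p = 0.0661) and without normal array 2 (0.0650) or normal array 3 (0.0753), at 0.54 to 0.73 log2. In 4NQO+IL-1Ra tongue, Zfp36 differed by 0.47 log2 from normal (limma adjusted p = 0.137) and by -0.29 log2 from 4NQO (limma adjusted p = 0.383).

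**Figure D3:**
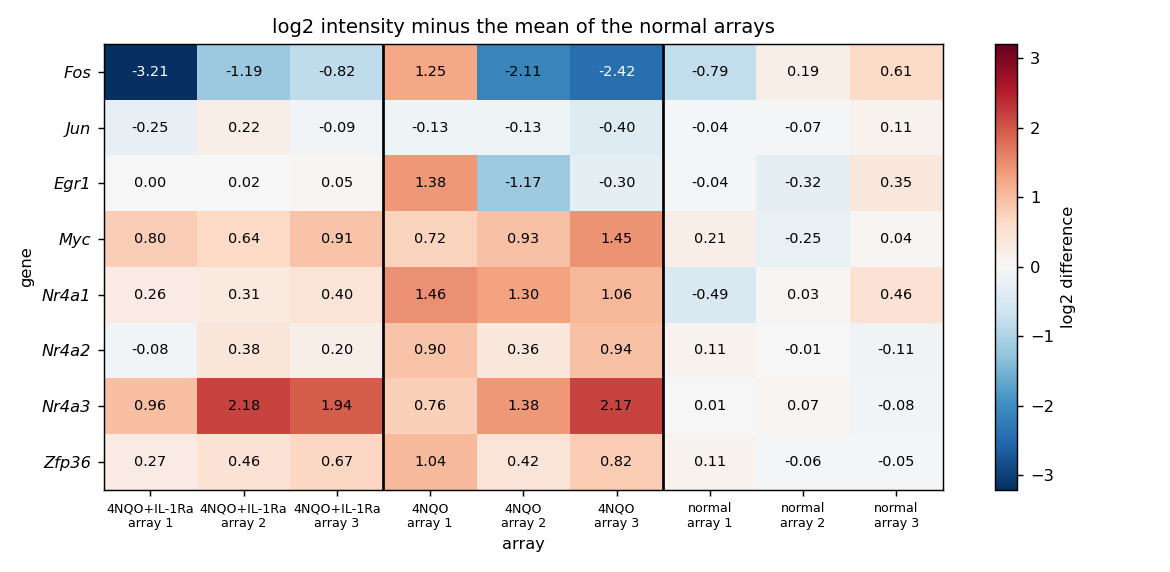
Log2 intensity of each member (rows) on each of the 9 arrays (columns) minus its mean on the normal arrays, from blue (lower) to red (higher), with the value in each cell. Fos ranges from -3.21 on 4NQO+IL-1Ra array 1 to 1.25 on 4NQO array 1, whereas Myc, Nr4a1, Nr4a3 and Zfp36 are above 0 on all 6 arrays of carcinogen-treated rats.

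Within the 4NQO group the members did not all peak on the same array. There Fos, Jun, Egr1, Nr4a1 and Zfp36 were highest on array 1, whereas Myc, Nr4a2 and Nr4a3 were highest on array 3. Thus 5 of 8 members peaked on array 1, against 28.2% of all genes. In the 4NQO+IL-1Ra group, 7 of 8 members were lowest on array 1, against 35.7% of all genes, and the exception was Myc, which was lowest on array 2. These counts are descriptions of single arrays.

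The genes most like each member, by Pearson's r over the 9 arrays among genes that were no members, are given as a description, since differences between groups and single arrays both enter r. Fos was closest to Ptgis, prostacyclin synthase (r = 0.93), and Dusp1, an immediate early phosphatase of MAP kinases (r = 0.92). Dusp1 read 8.51, 9.20 and 9.35 log2 with IL-1Ra, 10.37, 8.72 and 9.29 log2 in 4NQO, and 9.58, 9.68 and 9.77 log2 in normal tongue, with the same high 4NQO array 1 as Fos. Egr1 was closest to Stap1 (r = 0.92) and Dchs1 (r = 0.90), and Jun to Abhd17b and Slc9a2 (r = 0.91 each).

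Among the members called in 4NQO, Myc was closest to Sox15, a factor of the Sox family, and Lin9, a subunit of the DREAM and MuvB cell cycle complexes (r = 0.99 each). Nr4a1 was closest to Cgrrf1 (r = 0.95) and Tbkbp1 (r = 0.94), and Nr4a2 to Arhgef2 and Noc3l (r = 0.96 each). Nr4a3 was closest to Topbp1, a protein of the DNA replication checkpoint (r = 0.98), and Marchf9 (r = 0.97). Zfp36 was closest to Ap2b1 and Trim25 (r = 0.98 each).

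Around Fos and Jun, the other AP-1 proteins showed no limma call in 4NQO against normal tongue (0 of 8, with 0 higher and 1 lower at an unadjusted p below 0.05). Over all genes, 12.4% were called higher and 5.08% lower there, and 1.91% higher in 4NQO+IL-1Ra against 4NQO tongue. With IL-1Ra, 1 of 8 rose against 4NQO: Fosl2 (Fra-2), at 6.15, 6.16 and 6.08 log2 with IL-1Ra and 5.03, 5.23 and 5.60 log2 in 4NQO, against 5.61, 5.67 and 5.76 log2 in normal tongue. The 3 groups of Fosl2 did not overlap, with 4NQO lowest and 4NQO+IL-1Ra highest, and the rise over 4NQO was 1.80-fold (0.85 log2, limma adjusted p = 0.0169). It was lost without any one 4NQO+IL-1Ra array or without 4NQO array 2 (0.82 to 0.87 log2, limma adjusted p 0.0502 to 0.0762).

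Among the 5 measured relatives and corepressors of Egr1, 1 rose and 1 fell in 4NQO against normal tongue. The shares over all genes were 12.4% higher and 5.08% lower. Egr2 rose 2.47-fold, at 7.26, 6.34 and 6.24 log2 in 4NQO against 4.66, 5.60 and 5.67 log2 in normal tongue (1.30 log2, limma adjusted p = 0.0413). Egr3 fell by 0.69 log2, at 3.48, 3.68 and 3.30 log2 in 4NQO against 3.93, 4.36 and 4.25 log2 in normal tongue (limma adjusted p = 0.0259). The Egr3 probe set was dim, at or below the lower quartile of the array on 2 of the 4NQO arrays, and it was not among the probe sets kept when the dimmest 40% were left out. Both calls were fragile: Egr2 was lost without 4NQO array 1 or 2, any one normal array or 4NQO+IL-1Ra array 2 (0.98 to 1.48 log2, limma adjusted p 0.0534 to 0.124), and Egr3 without 4NQO array 1 or 3 or normal array 2 or 3 (-0.69 to -0.60 log2, limma adjusted p 0.0536 to 0.0971). With IL-1Ra, limma called none of the 5 against 4NQO (0 at an unadjusted p below 0.05) or against normal (3 higher and 1 lower at an unadjusted p below 0.05).

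Of 18 other measured immediate early genes, 4 rose, 2 fell and 12 did not pass in 4NQO against normal tongue. Of all genes, 12.4% were called higher and 5.08% lower in that comparison. Sgk1, a kinase induced by serum and glucocorticoids, read 8.79, 8.30 and 9.03 log2 in 4NQO and 7.64, 6.91 and 7.72 log2 in normal tongue, a 2.44-fold rise (limma adjusted p = 0.014). The clock gene Per1 rose 2.24-fold (limma adjusted p = 0.0142), and Klf2, a factor of endothelium and lymphocytes, 2.12-fold (limma adjusted p = 0.0248). The anti-apoptotic Mcl1 fell by 0.57 log2 (limma adjusted p = 0.0181). Nfkbiz (0.88 log2) and Gadd45b (-0.58 log2), named after their values were seen, made up the calls.

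Within the 4NQO group, 15 of these 18 genes were lowest on array 2, against 35.4% of all genes, the array on which Egr1, Nr4a2 and Zfp36 were lowest too. Sgk1 was called with any single array left out. Per1 was lost without normal array 3 (1.14 log2, limma adjusted p = 0.0613), and Mcl1 without normal array 2 or 3 (-0.59 and -0.49 log2, limma adjusted p = 0.0558 and 0.0795). Klf2 was lost without 4NQO array 1 or 3 or any one normal array (0.98 to 1.21 log2, limma adjusted p 0.0559 to 0.0857). With IL-1Ra, limma called none of the 18 against 4NQO (4 higher and 4 lower at an unadjusted p below 0.05) or against normal (4 higher and 1 lower). Those counts depended on the setting: against 4NQO, 5 rose without 4NQO array 3, 3 after cyclic loess and 2 after quantile normalization, and against normal, 4 rose with only the 6 compared arrays, 3 with array weights and 2 without 4NQO array 3.

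The estimates of 8 of 8 measured SRF, ternary complex and CREB factors were above 0 in 4NQO against normal tongue. Over all genes, the median was 0.08 log2 and 12.4% were called higher, and the share with estimates above 0 is not given here. Among the 8 factors the median was 0.30 log2, 5 did not pass and 3 passed. These were Mrtfa, the actin-regulated coactivator of SRF (0.60 log2, limma adjusted p = 0.0199), Elk4, a ternary complex factor (0.43 log2, limma adjusted p = 0.0261), and Srf itself (0.54 log2, limma adjusted p = 0.0264). Srf read 8.72, 8.82 and 9.05 log2 with IL-1Ra, 9.30, 9.26 and 8.99 log2 in 4NQO, and 8.62, 8.79 and 8.53 log2 in normal tongue. The 4NQO arrays of Srf were above all normal arrays and overlapped those with IL-1Ra.

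These 3 calls depended on scaling and on single arrays. After cyclic loess 0 of 8 remained called, and after quantile normalization 1 of 8. Leaving out 1 array gave 0 to 3 calls: Srf was lost without 4NQO array 1 or 2 or any one normal array (0.48 to 0.61 log2), Elk4 without 4NQO array 2 or any one normal array (0.38 to 0.48 log2), and Mrtfa without normal array 2 or 3 (0.60 and 0.51 log2). With IL-1Ra, limma called 0 of 8 against 4NQO (0 higher and 2 lower at an unadjusted p below 0.05) and 0 of 8 against normal (2 higher and 0 lower).

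MAP kinase phosphatases and Sprouty proteins, which damp the signals that induce these genes, showed 1 call of 10 in 4NQO against normal tongue. Over all genes, 12.4% were called higher and 5.08% lower there, and 1.91% higher in 4NQO+IL-1Ra against 4NQO tongue. Dusp5, a nuclear ERK phosphatase, read 6.79, 7.13 and 6.75 log2 with IL-1Ra, 5.68, 5.06 and 5.99 log2 in 4NQO, and 7.09, 6.18 and 6.71 log2 in normal tongue. It fell by 1.08 log2 in 4NQO against normal (limma adjusted p = 0.0269), and it was 2.49-fold higher in 4NQO+IL-1Ra than in 4NQO tongue (1.32 log2, limma adjusted p = 0.0376), with every 4NQO array below all others. The fall was lost without 4NQO array 2, normal array 1 or normal array 3 (-1.06 to -0.83 log2), and the rise without any one 4NQO+IL-1Ra array, 4NQO array 1 or 2, or normal array 3 (1.06 to 1.39 log2).

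Around Myc, the partners and antagonists that compete for Max included a large difference. Mxd1 (Mad1), a repressor that displaces Myc from Max in differentiating cells, read 8.38, 8.25 and 8.03 log2 with IL-1Ra, 6.56, 5.60 and 6.58 log2 in 4NQO, and 7.98, 7.74 and 8.0 log2 in normal tongue. The 4NQO arrays were all below the others, by more than 1 log2. Mxd1 was 3.17-fold lower in 4NQO than in normal tongue (-1.66 log2, limma adjusted p = 0.00546) and 3.93-fold higher in 4NQO+IL-1Ra than in 4NQO tongue (1.97 log2, limma adjusted p = 0.00372). Both Mxd1 calls held with any single array left out.

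Mnt, another Max-binding repressor, rose 1.74-fold in 4NQO against normal tongue (0.80 log2, limma adjusted p = 0.0128), a call lost without normal array 3 (0.72 log2, limma adjusted p = 0.0615). The other 7 of 9 did not pass. Over all genes, 12.4% were called higher and 5.08% lower in 4NQO against normal tongue, and 1.91% higher in 4NQO+IL-1Ra against 4NQO. Markers of the cornified layer moved in the direction of Mxd1: 3 of 4 fell in 4NQO against normal tongue and 2 of 4 rose in 4NQO+IL-1Ra against 4NQO. Their summed intensity was 28592 to 29012 with IL-1Ra, 3088 to 13010 in 4NQO and 26166 to 27648 in normal tongue, and 0 of the 4 were at or below the lower quartile on all arrays. The part of this cell layer in the Mxd1 result was not tested.

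MYC targets were higher in 4NQO than in normal tongue for 8 of 14 measured genes, and none was lower. They were genes of nucleotide and polyamine synthesis, of ribosome production and of the cell cycle (Cdk4 and Ccnd2). The list was chosen by function, but with earlier results of these data known. All 14 estimates were above 0, with a median of 0.63 log2 beside 0.08 log2 over all genes. Of all genes, 12.4% were called higher, and the share with estimates above 0 is not given here. Bop1, which matures the large ribosomal subunit, read 7.91, 7.69 and 7.68 log2 with IL-1Ra, 7.50, 7.53 and 7.92 log2 in 4NQO, and 6.93, 6.86 and 7.02 log2 in normal tongue. All carcinogen-treated arrays were above normal, with 0.71 log2 for 4NQO (limma adjusted p = 0.0114) and 0.82 log2 for 4NQO+IL-1Ra (limma adjusted p = 0.0362).

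Ppat, the first enzyme of purine synthesis, rose by 0.57 log2 in 4NQO against normal tongue (limma adjusted p = 0.0111). Rrs1, a ribosome assembly factor, rose by 0.65 log2 (limma adjusted p = 0.0179), and Nop56, a core protein of box C/D ribonucleoproteins, by 0.70 log2 (limma adjusted p = 0.0221). Within the 4NQO group, 12 of the 14 targets were highest on array 3, against 37.8% of all genes, which was also the array with the highest Myc. In 4NQO+IL-1Ra against 4NQO tongue, limma called 0 of 14 (1 higher and 1 lower at an unadjusted p below 0.05), with a median of -0.14 log2. Against normal tongue, 1 of 14 (Bop1) rose in 4NQO+IL-1Ra, beside 1.66% of all genes. All 14 estimates were above 0, with a median of 0.51 log2.

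The count of MYC targets called in 4NQO moved with the scaling, to 3 of 14 after quantile normalization and 1 of 14 after cyclic loess, and leaving out 1 array gave 2 to 8. Ppat was lost without normal array 3 (0.55 log2), and Rrs1 and Nop56 without normal array 2 or 3 (0.59 and 0.64 log2 for Rrs1, 0.57 and 0.75 log2 for Nop56). Bop1 was called in 4NQO against normal with any single array left out. In 4NQO+IL-1Ra against normal, Bop1 was lost without any one array of those groups (0.75 to 0.87 log2, limma adjusted p 0.0805 to 0.165). In that comparison, leaving out 1 array gave 0 to 6 MYC target calls. Array weights gave 7, as did fitting only the 6 arrays compared, and quantile normalization and cyclic loess gave 0.

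Keratinocyte markers went only in part with the MYC targets. Their median was 0.63 log2 in 4NQO against normal tongue, with 4 of 6 estimates above 0. At an unadjusted limma p below 0.05, 3 of the 6 were higher and 1 was lower. In 4NQO+IL-1Ra against normal their median was 0.53 log2, with 6 of 6 above 0. One of the 6 was called in 4NQO: Tp63, a factor of basal keratinocytes, at 9.07, 9.20 and 8.94 log2 with IL-1Ra, 9.07, 9.14 and 10.24 log2 in 4NQO, and 8.51, 7.47 and 8.27 log2 in normal tongue (2.64-fold in 4NQO, limma adjusted p = 0.0226). Over all genes, 12.4% were called higher in 4NQO against normal tongue. Tp63 was highest on 4NQO array 3, like 12 of the 14 targets. The peak arrays of the other markers are not given here. The markers' summed intensity was 38955 to 43065 with IL-1Ra, 28692 to 46270 in 4NQO and 29565 to 35731 in normal tongue, and 0 of 6 were at or below the lower quartile on all arrays. The part of keratinocyte content in the results for Myc and its targets was not tested.

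**Figure D4:**
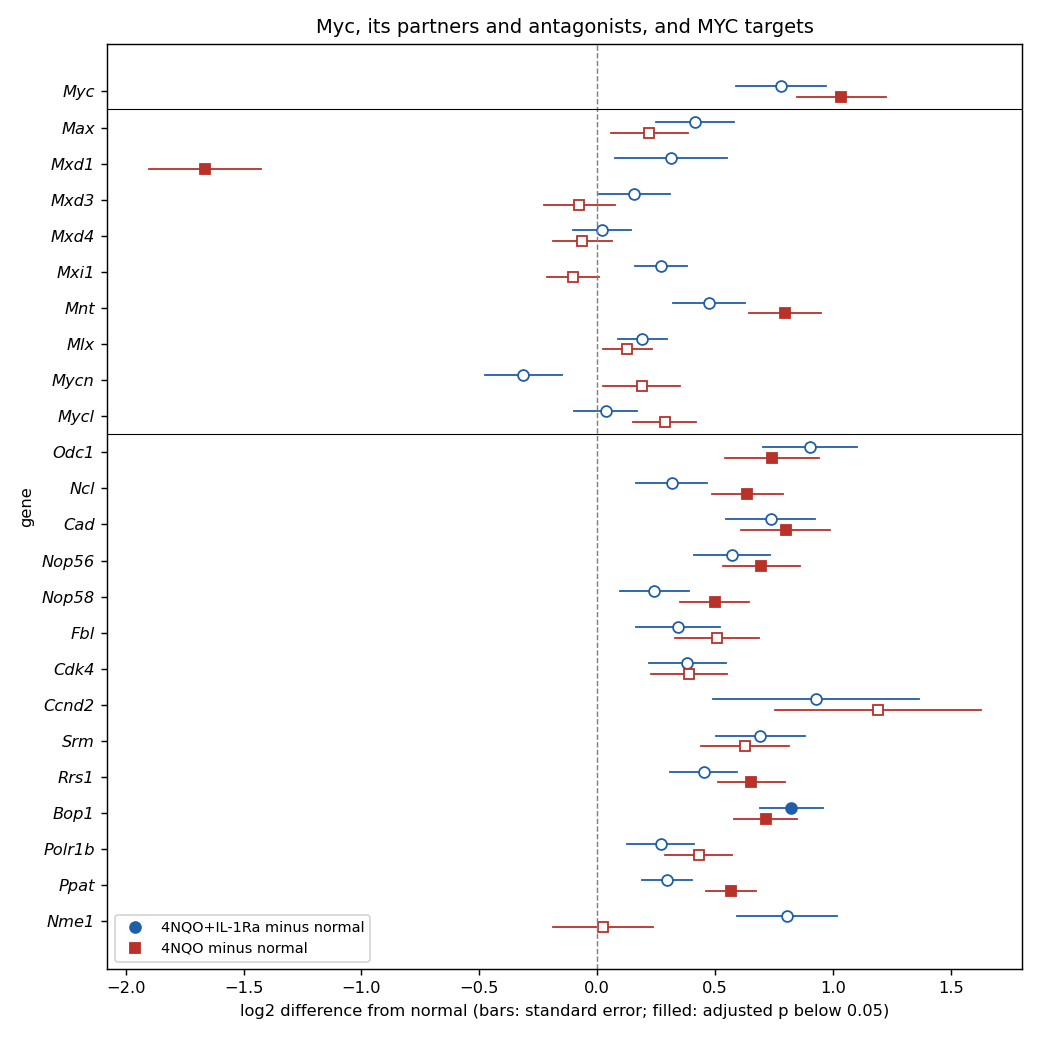
Log2 difference from normal tongue (horizontal axis, bars are the standard error) of Myc, of 9 partners and antagonists and of 14 MYC targets, for 4NQO+IL-1Ra (blue circles) and 4NQO (red squares), filled where the limma adjusted p was below 0.05. Mxd1 lies at -1.66 in 4NQO and 0.31 in 4NQO+IL-1Ra, while the estimates of all 14 targets lie above 0 in both.

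The retinoid X receptors, which pair with Nr4a1 and Nr4a2, had 0 limma calls of 3 in every comparison, with 1 or 2 of them past an unadjusted p of 0.05 in each. Of 10 measured relatives and AU-rich targets of Zfp36, 1 rose and 1 fell in 4NQO against normal tongue. The shares over all genes were 12.4% higher and 5.08% lower. Zfp36l2, a relative with the same RNA-binding fingers, read 9.18, 8.91 and 9.07 log2 with IL-1Ra, 9.49, 9.29 and 9.82 log2 in 4NQO, and 8.84, 8.85 and 8.54 log2 in normal tongue. The 3 groups did not overlap, with 4NQO highest and normal lowest, and the rise in 4NQO over normal was 1.73-fold (0.79 log2, limma adjusted p = 0.013), lost without normal array 3 (0.69 log2, limma adjusted p = 0.0614).

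Tnf, a classical target of Zfp36, fell by 0.61 log2 in 4NQO against normal tongue (limma adjusted p = 0.0493), at 4.87, 4.60 and 4.74 log2 in 4NQO against 5.33, 5.29 and 5.41 log2 in normal tongue. Those groups did not overlap, but the call was lost after quantile normalization (limma adjusted p = 0.0666) and cyclic loess (0.0821), and without any 1 of the 6 arrays compared or without 4NQO+IL-1Ra array 2 (-0.68 to -0.54 log2, limma adjusted p 0.064 to 0.149). With IL-1Ra, limma called none of the 10 against 4NQO (0 higher and 1 lower at an unadjusted p below 0.05) or against normal (1 higher and 1 lower). Within the 4NQO group, 7 of the 10 were highest on array 1, against 28.2% of all genes. One was Ptgs2 (cyclooxygenase-2), named after its values were seen, at 5.97, 2.84 and 4.03 log2 in 4NQO and 2.91, 2.97 and 3.55 log2 in normal tongue. Its probe set was at or below the array's lower quartile on 7 of 9 arrays, all normal arrays among them, so it gives no usable difference from normal tongue.

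Other measures moved with the groups. Markers of endothelium, a cell type in which Klf2 is known to be active, were higher in 4NQO than in normal tongue for 3 of 4 genes, with summed intensities of 1024 to 1257 with IL-1Ra, 1261 to 1792 in 4NQO and 909 to 1055 in normal tongue. Fibroblast markers fell for 5 of 6 genes in 4NQO against normal tongue, with sums of 12358 to 15750 with IL-1Ra, 4455 to 13156 in 4NQO and 18235 to 20963 in normal tongue. None of these markers was at or below the lower quartile on all 9 arrays. In 4NQO against normal tongue, 12.4% of all genes were called higher and 5.08% lower. Of the skeletal muscle markers, 0 of 7 were that dim. Their sums were 43744 to 48206 with IL-1Ra, 46660 to 58432 in 4NQO and 50597 to 56139 in normal tongue. Limma called 1 of 7 lower in 4NQO+IL-1Ra against 4NQO tongue, beside 0.753% of all genes. Neither comparison with normal tongue had a call (0 of 7).

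RNA quality was read from beta-actin, whose 3′ probe set exceeded its 5′ probe set by 1.13 ± 0.15 log2 with IL-1Ra, 1.20 ± 0.11 in 4NQO and 0.80 ± 0.06 in normal tongue (SD, n = 3 each). The exact two-sided permutation p was 0.1 for either carcinogen-treated group against normal, the smallest that 3 arrays against 3 allow, and 0.6 between the carcinogen-treated groups. The same difference of hexokinase was 1.98 ± 0.20 log2 with IL-1Ra, 1.5 ± 0.26 in 4NQO and 1.5 ± 0.03 in normal tongue, and that of GAPDH 0.27 ± 0.01, 0.35 ± 0.07 and 0.27 ± 0.03 log2 in that order. Between 4NQO+IL-1Ra and 4NQO the exact permutation p was 0.1 for each of these controls (n = 3). The parts of cell makeup and RNA quality in the results for the members were not tested.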

How the data were processed

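Biotin-labelled material prepared from total RNA of 9 rat tongue samples, 3 per group by the treatment in their labels, was hybridised to Affymetrix Rat Genome 230 2.0 arrays. The authors deposited 1 linear intensity per probe set and array, and Affymetrix Expression Console and RMA are named in the submitters' processing notes, with versions not given in the sources used here. RMA is meant to equalise the arrays, which can mask a change shared by most genes. The deposited arrays were not fully equal. The upper quartile was 7.04 to 7.08 log2 on normal arrays and 7.16 to 7.28 log2 on arrays of carcinogen-treated rats. The lower quartile was 3.73 to 3.78 log2 on normal arrays and 3.60 to 3.70 log2 on arrays of carcinogen-treated rats.

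The log2 of each intensity was taken. Of 31099 probe sets, 57 controls were left out and 31042 tested without a filter. Platform annotation gave 20826 a single symbol, 436 several and 9780 none. Three-group means were fitted by limma 3.58.1 (R 4.3.3) to all 9 arrays (6 residual and 4.01 prior degrees of freedom), two-sided, with Benjamini-Hochberg adjustment over all probe sets within each comparison. The number of arrays limits the precision. Arrays correlated at 0.967 to 0.995, with 0 identical pairs, and the median SD within a group was 0.15 log2 with IL-1Ra, 0.19 in 4NQO and 0.11 in normal tongue. The procedure was tested on simulated data.

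Members and gene lists were chosen with earlier results of these data known. Named genes were all members, from each list up to 4 called genes of lowest adjusted p, and the 2 genes with the highest correlation to each member. Alternatives were other scalings, leaving out the dimmest 40% of probe sets, other variance models, array weights, fitting only the 6 arrays compared, 1 probe set per gene, the methods' t-test at an unadjusted p of 0.05 with a fold of 2 or 1.5 or after Benjamini-Hochberg adjustment, and leaving out each array. RNA quality was tested by exact permutation. Figures were drawn with matplotlib in Python.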

Additional observations from a re-analysis of the deposited data

How the results depend on the processing

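With 3 arrays per group, and with adjustment over all probe sets, calls near the threshold were easily lost, and the cause of each change was not tested. The count of members called in 4NQO against normal tongue, 5 in the values as deposited, was 3 after cyclic loess, 0 by the methods' t-test after Benjamini-Hochberg adjustment and 3 by it unadjusted with a fold of 2, and 2 to 5 with 1 array left out. For 4NQO+IL-1Ra against 4NQO, the count of 1 became 0 after quantile normalization, cyclic loess, array weights and 1 probe set per gene, and 0 by the methods' t-test adjusted or with a fold of 2, and it was 0 to 1 with 1 array left out. For 4NQO+IL-1Ra against normal, the count of 1 became 0 after quantile normalization, cyclic loess, a trended and robust variance, 1 probe set per gene and the adjusted methods' t-test. It became 2 with array weights, 2 with the 6 arrays compared and 2 by the methods' t-test with a fold of 1.5, and was 0 to 2 with 1 array left out.

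Over all probe sets, 4610 calls in 4NQO against normal became 2821 after quantile normalization, 2480 after cyclic loess, 2648 with 1 probe set per gene (fewer tested), 1 by the adjusted methods' t-test, 452 by it with a fold of 2 and 2249 with a fold of 1.5, and 851 to 4417 with 1 array left out. For 4NQO+IL-1Ra against 4NQO, 722 became 195 with the 6 arrays compared, 359 with 1 probe set per gene, 0 by the adjusted methods' t-test and 357 with a fold of 2, and 184 to 2353 with 1 array left out. For 4NQO+IL-1Ra against normal, 581 became 203 after quantile normalization, 97 after cyclic loess, 3556 with array weights, 2714 with the 6 arrays compared, 326 with 1 probe set per gene, 109 by the adjusted methods' t-test, 195 with a fold of 2 and 1391 with a fold of 1.5, and 0 to 2084 with 1 array left out.

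Sign changes were seen in differences that were not called, apart from the Nr4a3 differences read on its dim probe set. For Egr1, 4NQO minus normal was 0.39 log2 with array weights and -0.74 to 0.54 with 1 array left out, 4NQO+IL-1Ra minus 4NQO was -0.40 with array weights and -0.51 to 0.76, and 4NQO+IL-1Ra minus normal was -0.064 after quantile normalization, -0.070 after cyclic loess, -0.012 with array weights and -0.13 to 0.20. For Fos, 4NQO+IL-1Ra minus 4NQO was -1.31 to 0.53 with 1 array left out. For Jun, the other probe sets gave 0.10 and 0.12 for 4NQO minus normal, -0.074 for 4NQO+IL-1Ra minus 4NQO, and 0.022 and 0.29 for 4NQO+IL-1Ra minus normal, which was -0.17 to 0.066 with 1 array left out. For Nr4a3, whose main probe set was called in both comparisons with normal, the dim probe set gave -0.043 for 4NQO minus normal and -0.013 for 4NQO+IL-1Ra minus normal, and 4NQO+IL-1Ra minus 4NQO was -0.080 to 0.62 with 1 array left out. No paired analysis was possible because the labels give the groups no shared replicate numbers.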
